A study of Homo sapiens with 6 samples.

Results

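The genes described here are the receptors and ligands of fibroblast growth factor (FGF) signalling and its Sprouty inhibitors. They are 10 of the 58825 genes in the deposited expression table, matched by symbol: FGFR1, FGFR2, FGFR3 and FGFR4 (the signalling receptors), FGFRL1 (a receptor-like protein), FGF1 and FGF2 (ligands), FGFBP1 (a ligand-binding protein), and SPRY2 and SPRY4 (feedback inhibitors). The set was drawn up when results for some of these genes in the same libraries were already known, so its share of called genes is not that of an unselected set. Poly(A) RNA was sequenced from HK-2 cells, an epithelial line from human proximal tubule that was immortalised with papillomavirus genes. Control cells (n = 3) were left untreated, and OX-LDL cells (n = 3) received oxidized low-density lipoprotein at 25 µg/mL for 48 h, in a study of how lipid injures kidney tubules. The study's methods describe starvation in low-serum medium before OX-LDL was added. All libraries came from 1 cell line. The study's methods speak of independently repeated cell experiments without naming the sequenced libraries, and the labels do not say whether the 3 libraries of a group came from separate cultures. The p-values therefore measure the spread between these libraries, which may be technical.

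FGF ligands bind a receptor tyrosine kinase together with heparan sulfate, or with a Klotho protein in the case of the hormone-like ligands. The activated receptor signals through FRS2, GRB2 and SOS1 to RAS and the ERK kinases, and ERK signalling induces ETV transcription factors, DUSP6 and Sprouty genes. Sprouty proteins then dampen the same cascade, which makes them widely used readouts of receptor signalling. In the kidney, FGFR2 acts in the branching of the ureteric bud, and FGF2 is known for its actions on fibroblasts and tubular cells.

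Each library held between 62561347 and 76797607 estimated counts, and mitochondrial transcripts took 5.25% to 5.69% of them. Of the lists of cell type markers, all 10 epithelial genes were above the limit of detection in at least 1 library. Their summed level was 648 to 711 FPKM (fragments counted per length of transcript and size of library) in Control and 347 to 414 FPKM in OX-LDL, with the tight junction gene CLDN1 alone at 453, 541 and 463 FPKM in Control and at 136, 127 and 135 FPKM in OX-LDL. CLDN1 was the 1 epithelial marker called as lower, and 2 were called as higher, the keratins KRT8 (37.5 FPKM on average in Control and 65.4 FPKM in OX-LDL, adjusted p = 0.0116) and KRT19 (5.47 and 20.6 FPKM, adjusted p = 0.00207). The epithelial cadherin CDH1 was at most 0.144 FPKM in any library. Kidney tubule markers summed to 106 to 123 FPKM in Control and 97.0 to 110 FPKM in OX-LDL, with LRP2 and EMX2 at 0 counts throughout, and the proximal tubule genes AQP1 and CUBN near 0. Leukocyte markers summed to 3.15 to 7.80 and 9.20 to 14.2 FPKM, mostly from the lysosomal gene CD68 (2.77, 5.31 and 7.56 FPKM in Control and 13.6, 8.91 and 9.91 FPKM in OX-LDL). PTPRC was at 0 in all but OX-LDL replicate 1, and none of the 7 leukocyte genes was called. Fibroblast markers summed to 33.3 to 35.9 and 30.8 to 41.7 FPKM, with DCN at 0. Most of this came from FBLN1 (23.6 FPKM on average in Control and 23.1 FPKM in OX-LDL) and LUM (10.2 and 11.4 FPKM). Endothelial markers summed to at most 0.122 FPKM. The part of these differences in the results that follow was not tested.

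Expression of the FGF system differed between the groups mainly at FGFR2, FGFR3 and FGFBP1, which were higher in OX-LDL cells, and at SPRY2 and SPRY4, which were lower. A gene was called when its adjusted p, from edgeR's quasi-likelihood test with Benjamini-Hochberg adjustment over all 19510 genes tested, was under 0.05. Of the 10 genes, 9 reached the level needed for testing (a mean of 0.1 FPKM over the 6 libraries), each of them also within the Control group alone, and FGF1 did not. Of these 9, 3 were called as higher and 2 as lower, 55.6% in all. Across all genes tested 15.3% were called, 7.91% as higher and 7.42% as lower. An unadjusted p under 0.05 was found for 8 of the 9, against 30.4% of all genes. The FPKM values of the groups did not overlap for 8 of the 9, against 37.2% of all genes. A change past 2-fold in either direction with an unadjusted p under 0.05, the size limit used by the study, was found for FGFR2, FGFR3, FGFBP1 and SPRY4, and for 6.36% of all genes. The median log2 fold change of the 9 genes was 0.21, and that of all genes tested was -0.0043.

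**Figure D1:**
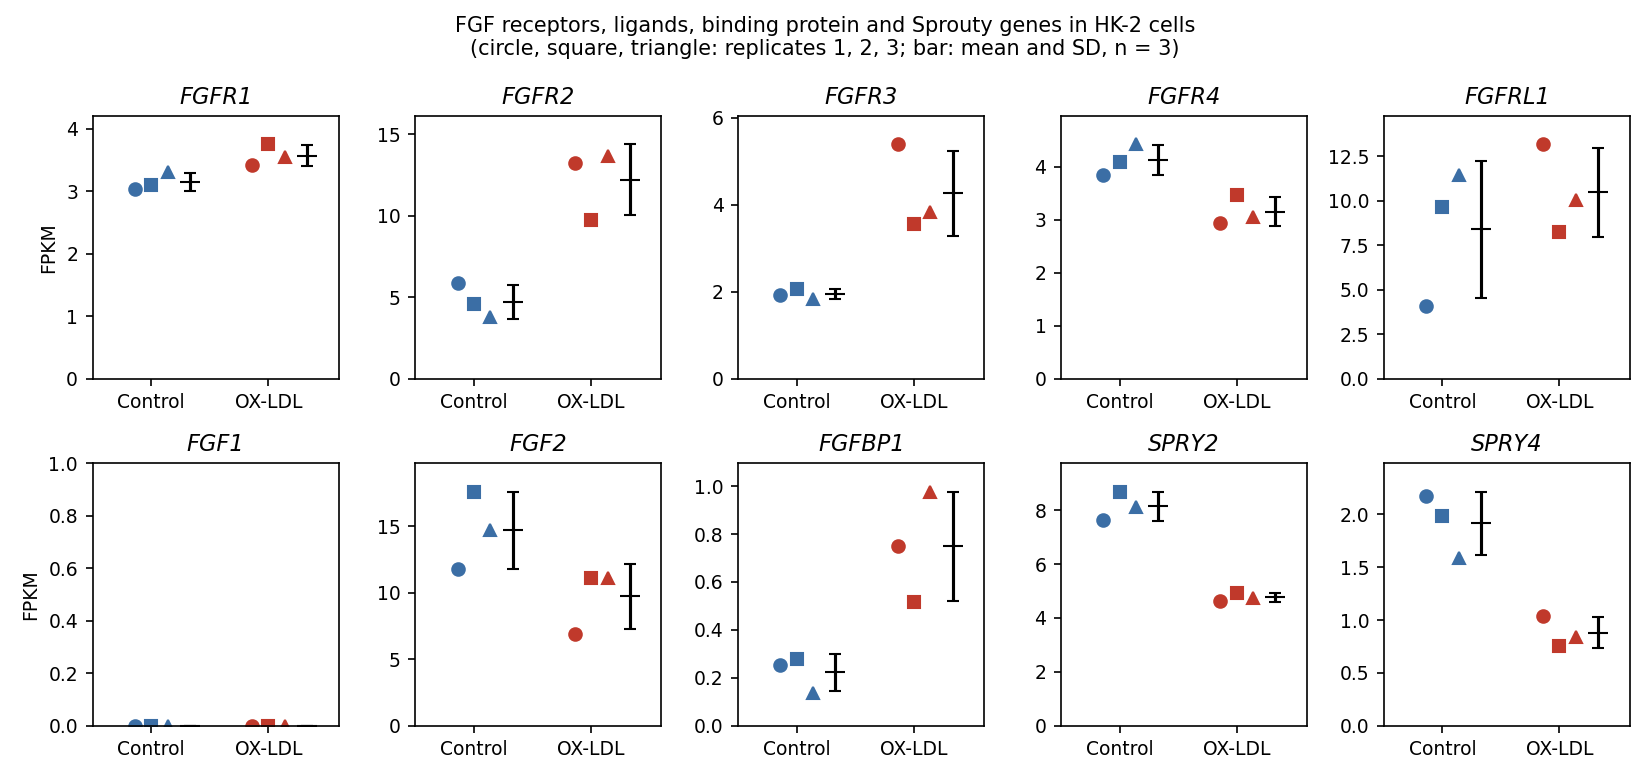
FPKM (y axis, linear, from 0) of the 10 genes in the 3 Control (blue) and 3 OX-LDL (red) libraries. Circles, squares and triangles are replicates 1, 2 and 3, and the black bars give the mean and SD (n = 3). All OX-LDL libraries lie above all Control libraries for FGFR1, FGFR2, FGFR3 and FGFBP1, and below them for FGFR4, FGF2, SPRY2 and SPRY4. FGFRL1 overlaps, and FGF1 is at 0 throughout.

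FGFR2, whose isoforms are the receptors for FGF7 and FGF10 in epithelia and for FGF2 and others in mesenchyme, stood at 5.84, 4.55 and 3.77 FPKM in Control and at 13.2, 9.73 and 13.7 FPKM in OX-LDL. The lowest OX-LDL library lay well above the highest Control library. In RNA from whole cultures, more cells that express a gene and more RNA per cell cannot be told apart. FGFR2 rose by a log2 fold change of 1.40 (standard error 0.20, 95% interval 0.93 to 1.87, edgeR adjusted p = 0.00771), which is 2.64-fold. These values rested on 2332 to 3896 estimated counts per library in Control and 6709 to 9415 in OX-LDL. FGFR2 lies at chr10:121478334-121598458 on the minus strand (GRCh38), and no other gene of the table overlaps it.

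FGFR3, a receptor best known for restraining bone growth and for its mutations in urothelial cancer, was at 1.93, 2.07 and 1.83 FPKM in Control and at 5.39, 3.57 and 3.84 FPKM in OX-LDL. Control libraries were closely grouped, whereas OX-LDL replicate 1 stood above the other two treated libraries. The log2 fold change was 1.16 (standard error 0.17, 95% interval 0.75 to 1.57, edgeR adjusted p = 0.00852), or 2.24-fold higher. Without OX-LDL replicate 1 it was 0.97 and the call held (adjusted p = 0.0365 or lower in each of the 6 fits that left out 1 library). FGFR3 lies at chr4:1793293-1808872 on the plus strand and overlaps no other gene.

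The promoters of FGFR2 and FGFR3 are shown here because these were the receptors called, both as higher. Each window runs from 250 bases before the RefSeq start site to 50 bases after it (GRCh38.p14, each read 5′ to 3′ on the gene's strand). FGFR2's window is chr10:121598395-121598694 on the minus strand and FGFR3's is chr4:1793043-1793342 on the plus strand. Capitals mark the GC box, GGGCGG or its reverse complement CCGCCC, the letters bound by SP1-type factors.
FGFR2: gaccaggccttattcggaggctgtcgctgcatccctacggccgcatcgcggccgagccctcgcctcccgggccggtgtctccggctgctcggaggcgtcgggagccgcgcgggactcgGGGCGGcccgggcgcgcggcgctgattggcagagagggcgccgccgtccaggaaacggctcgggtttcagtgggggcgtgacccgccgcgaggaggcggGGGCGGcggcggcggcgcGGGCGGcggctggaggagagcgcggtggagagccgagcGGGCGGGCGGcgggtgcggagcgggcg
FGFR3: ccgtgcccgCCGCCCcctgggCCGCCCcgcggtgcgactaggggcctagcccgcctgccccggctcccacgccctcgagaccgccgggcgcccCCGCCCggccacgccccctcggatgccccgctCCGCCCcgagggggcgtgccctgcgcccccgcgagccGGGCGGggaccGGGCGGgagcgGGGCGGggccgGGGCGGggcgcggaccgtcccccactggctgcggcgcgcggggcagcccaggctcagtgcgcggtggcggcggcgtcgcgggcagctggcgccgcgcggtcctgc
Both windows are rich in G and C, at 79.3% for FGFR2 and 86.3% for FGFR3, and 96.7% and 99.9% of the 34796 RefSeq promoters of this length had less. FGFR2's window holds 5 GC boxes, some of them overlapping, and FGFR3's holds 8. At least 1 GC box is present in 44.9% of all promoters. FGFR4, which was not called, holds 7 in a window of 78.7% G and C, and FGFRL1, also not called, holds 4 at 68.3%. GC boxes were thus not confined to the receptors called. None of the 9 promoters found in RefSeq holds TATAAA (in 11.6% of all promoters on either strand) or the AP-1 letters TGACTCA (in 4.96%). CACGTG, the E-box, occurs once among them, in FGFRL1, and in 7.2% of all promoters.

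FGFR1, the receptor most associated with mesenchymal cells, was at 3.02, 3.10 and 3.31 FPKM in Control and at 3.41, 3.75 and 3.54 FPKM in OX-LDL. All treated libraries were higher by a small margin, and the log2 fold change was 0.21 (standard error 0.078, 95% interval 0.03 to 0.40). It was not called (edgeR adjusted p = 0.116). FGFR1 lies at chr8:38400215-38468834 on the minus strand, and LETM2 overlaps it on the opposite strand with 2738 to 3566 counts in Control and 1796 to 2314 in OX-LDL. The library kit marks strand, but whether the counting used it is not given in the sources used here. Reads from the shared stretch may therefore not be told apart.

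FGFR4, the receptor for the bile acid hormone FGF19 in liver, was at 3.85, 4.09 and 4.42 FPKM in Control and at 2.94, 3.47 and 3.05 FPKM in OX-LDL. Each treated library was below each Control library, and the log2 fold change was -0.35 (standard error 0.11, 95% interval -0.62 to -0.09). It was not called (edgeR adjusted p = 0.0814), but was called by DESeq2 on the same counts (adjusted p = 0.0343). FGFR4 lies at chr5:177086905-177098022 on the plus strand.

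FGFRL1 has an FGF-binding outer part and no kinase domain. It was at 4.08, 9.66 and 11.4 FPKM in Control and at 13.2, 8.24 and 10.04 FPKM in OX-LDL, and the groups overlapped. Control replicate 1 held 1559 counts, fewer than any other library (3252 to 4223), and the coefficient of variation within Control was 45.7%. The log2 fold change was 0.36 (standard error 0.36, 95% interval -0.50 to 1.22, edgeR adjusted p = 0.569), and 0.03 without Control replicate 1. A change of 2-fold in the upward direction thus lies within the interval. FGFRL1 lies at chr4:1009936-1026891 on the plus strand.

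Because FPKM is scaled to transcript length, the levels of the receptors can be set side by side. FGFR1 to FGFR4 together summed to 14.7, 13.8 and 13.3 FPKM in Control and to 25.0, 20.5 and 24.1 FPKM in OX-LDL. FGFR2 made up 39.9%, 32.9% and 28.3% of this sum in Control and 53.0%, 47.4% and 56.8% in OX-LDL. FGFR4's share was 29.7% ± 3.45 (SD, n = 3) in Control and 13.8% ± 2.75 in OX-LDL, with no overlap between the groups. FGFR1's share was 22.6% ± 2.09 in Control and 15.5% ± 2.41 in OX-LDL, while its own level was not called as changed. FGFR3's share was 14.0% ± 0.922 in Control and 18.3% ± 2.95 in OX-LDL. In Control cells FGFR3 was the least abundant of the signalling receptors in every library. In OX-LDL cells FGFR4 took that place in every library, and the ratio of FGFR3 to FGFR4 went from 0.474 ± 0.0526 to 1.37 ± 0.416. FGFR2 stood at 1.16 ± 0.335 times FGFR4 in Control and 3.93 ± 0.975 times FGFR4 in OX-LDL. These shares and ratios were built from the levels given above and were not tested separately.

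**Figure D2:**
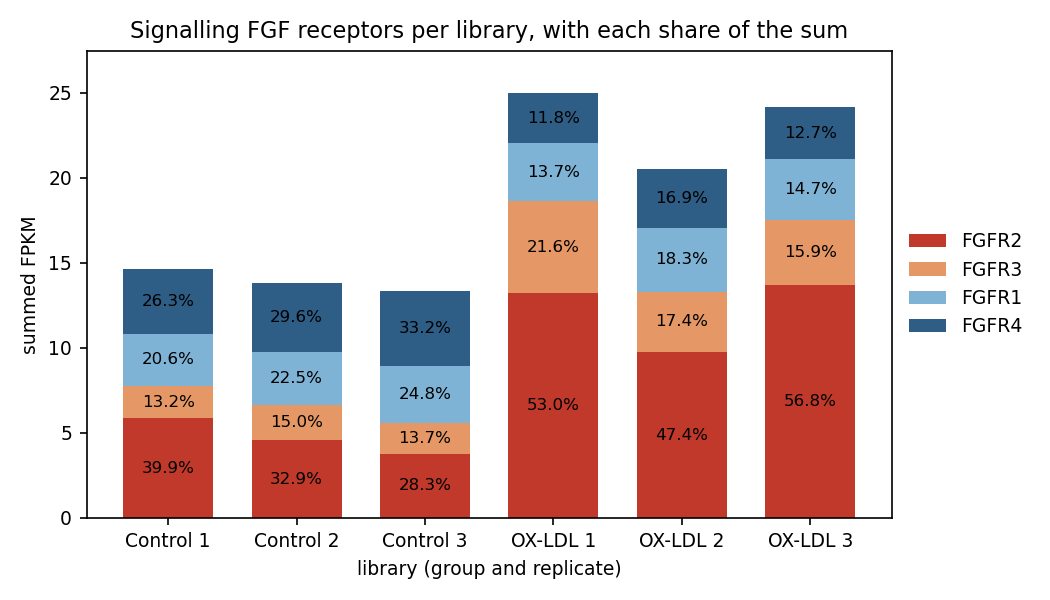
Summed FPKM (y axis, linear, from 0) of FGFR2, FGFR3, FGFR1 and FGFR4 in each of the 6 libraries, with the share of the sum printed in each block. The summed height is 13.3 to 14.7 FPKM in Control and 20.5 to 25.0 FPKM in OX-LDL, and the FGFR2 block accounts for most of the added height.

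FGF2, or basic FGF, a ligand with broad receptor binding and no classical secretion signal, was the most abundant of the 10 genes in Control. It was at 11.8, 17.6 and 14.8 FPKM in Control and at 6.90, 11.1 and 11.1 FPKM in OX-LDL. The groups did not overlap, though Control replicate 1 lay close to the upper treated libraries. The log2 fold change was -0.56 (standard error 0.22, 95% interval -1.08 to -0.04), which was not called (edgeR adjusted p = 0.139). In Control, FGF2 transcripts stood at 3.27 ± 1.08 times those of FGFR2 per unit length, and in OX-LDL at 0.827 ± 0.312 times. FGF2 lies at chr4:122826708-122898236 on the plus strand. NUDT6 overlaps it on the opposite strand with 346 to 503 counts per library, as does 1 unnamed gene with fewer counts.

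FGF1, or acidic FGF, the ligand that binds all FGF receptors, had 0 counts in all 6 libraries. The table's counts bunch at 4 per gene (1156 to 1382 genes per library hold exactly 4 counts, against 415 to 516 that hold 3), which corresponds to about 4 counts for each read pair. A count of 0 then allows up to 3 read pairs, or 12 counts, which is 0.156 to 0.192 CPM (counts scaled to the library's total) here. This limit covers counting error only, and FGF1 was not detectable at this depth in either group. FGF1 lies at chr5:142592178-142698052 on the minus strand.

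FGFBP1 encodes a secreted carrier that releases FGFs from the extracellular matrix. It was at 0.252, 0.279 and 0.136 FPKM in Control and at 0.752, 0.517 and 0.976 FPKM in OX-LDL. Every treated library was above every Control library, but the estimated counts behind them were few, from 16 to 34 per Control library and from 64 to 121 per OX-LDL library, each standing for about 4 times fewer read pairs. FGFBP1 rose by a log2 fold change of 1.75 (standard error 0.41, 95% interval 0.78 to 2.72, edgeR adjusted p = 0.0334), or 3.36-fold. The call was lost when any single library other than OX-LDL replicate 2 was left out (adjusted p = 0.0740 to 0.114), when genes of any level were tested (adjusted p = 0.0521), and with the replicate number as a block (adjusted p = 0.103). FGFBP1 lies at chr4:15935569-15938740 on the minus strand. Its promoter, shown because it differs in composition from those of the receptors, is chr4:15938691-15938990 on the minus strand.
FGFBP1: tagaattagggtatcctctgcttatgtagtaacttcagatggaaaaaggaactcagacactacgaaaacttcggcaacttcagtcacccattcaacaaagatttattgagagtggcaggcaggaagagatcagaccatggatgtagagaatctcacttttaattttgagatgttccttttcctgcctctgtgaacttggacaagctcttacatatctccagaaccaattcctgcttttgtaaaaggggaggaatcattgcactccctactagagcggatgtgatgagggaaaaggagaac
This window has 42% G and C, more than only 15% of all promoters, and holds none of the 5 motifs searched, so nothing in it is in capitals. FGF1's window was similar, at 44.3%, and that of FGF2 had 74.7% and 3 GC boxes.

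SPRY2, a Sprouty protein that blocks RAS and ERK activation downstream of FGF receptors, was at 7.62, 8.70 and 8.14 FPKM in Control and at 4.62, 4.94 and 4.75 FPKM in OX-LDL. Both groups were tight, with coefficients of variation of 6.57% and 3.40%, and lay far apart. SPRY2 fell by 0.74 on the log2 scale (standard error 0.092, 95% interval of the change -0.96 to -0.52, edgeR adjusted p = 0.00519), 1.67-fold lower. It had the smallest adjusted p of the 10 genes and was called under every alternative tried. SPRY2 lies at chr13:80335976-80341126 on the minus strand, with no overlapping gene.

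SPRY4, a second Sprouty protein, was at 2.18, 1.99 and 1.59 FPKM in Control and at 1.04, 0.753 and 0.843 FPKM in OX-LDL. Again no treated library reached the level of any Control library. SPRY4 fell by 1.09 on the log2 scale (standard error 0.18, 95% interval of the change -1.53 to -0.66, edgeR adjusted p = 0.0123), 2.13-fold lower. Leaving out Control replicate 2 gave an adjusted p of 0.0504, and leaving out OX-LDL replicate 3 gave 0.0517, at a log2 fold change of -1.07 in the latter. The ratio of SPRY2 to SPRY4 was 4.33 ± 0.810 in Control and 5.54 ± 1.07 in OX-LDL, and overlapped between the groups. SPRY4 lies at chr5:142310427-142326455 on the minus strand. SPRY4-AS1 overlaps it on the opposite strand. Its counts were 30, 16 and 15 in the Control libraries, while the OX-LDL libraries held 0, 0 and 4, under the limit of 12 counts.

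The promoters of the Sprouty pair are given because both genes fell, with GC boxes again in capitals, together with the ETS core CCGGAA (reverse complement TTCCGG), the letters bound by ETS factors, the family of ETV4 and ETV5. SPRY2's window is chr13:80341077-80341376 and SPRY4's is chr5:142324198-142324497, both on the minus strand. The SPRY4 start site in RefSeq lies 2208 bases inside the 5′ end that the table gives.
SPRY2: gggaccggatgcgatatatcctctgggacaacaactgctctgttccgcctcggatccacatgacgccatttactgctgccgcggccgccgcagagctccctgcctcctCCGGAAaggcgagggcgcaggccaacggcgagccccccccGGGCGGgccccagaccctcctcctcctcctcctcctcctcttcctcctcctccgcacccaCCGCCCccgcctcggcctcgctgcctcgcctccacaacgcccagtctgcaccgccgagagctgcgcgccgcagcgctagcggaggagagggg
SPRY4: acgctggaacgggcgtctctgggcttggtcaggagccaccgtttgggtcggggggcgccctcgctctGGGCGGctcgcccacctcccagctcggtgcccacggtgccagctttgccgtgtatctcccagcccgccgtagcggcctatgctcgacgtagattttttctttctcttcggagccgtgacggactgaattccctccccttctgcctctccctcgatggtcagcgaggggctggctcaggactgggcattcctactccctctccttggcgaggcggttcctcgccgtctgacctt
SPRY2's window holds 2 GC boxes and 1 ETS core, and SPRY4's holds 1 GC box and no ETS core. An ETS core is present in 17.2% of all promoters, and none of the other 8 promoters of the 10 genes that were found in RefSeq holds one. Their shares of G and C were 71% and 65%.

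**Figure D3:**
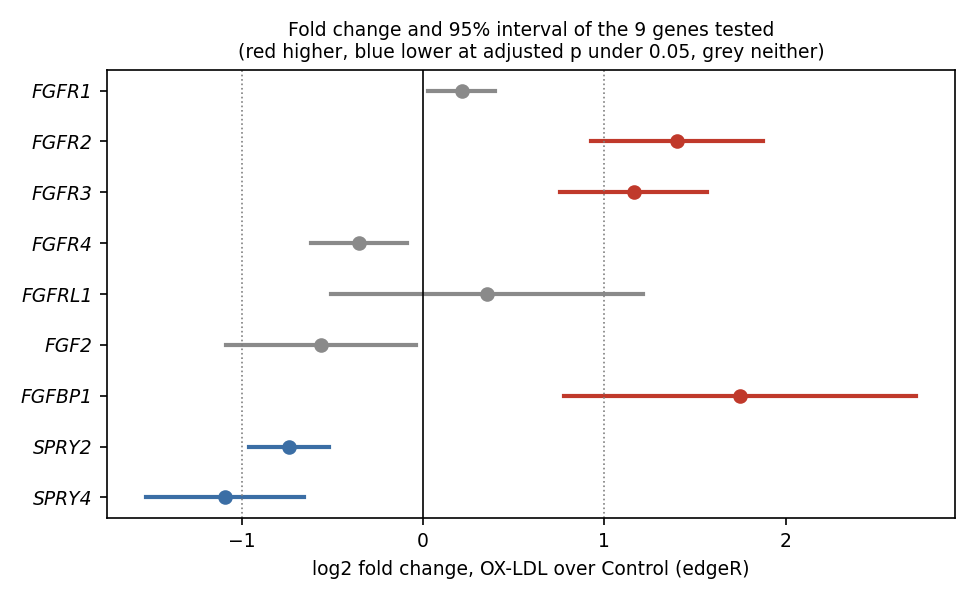
Log2 fold change of OX-LDL over Control (x axis) with its 95% interval for the 9 genes tested by edgeR. Red genes were called as higher and blue genes as lower at an adjusted p under 0.05, grey genes were not called, and dotted lines mark 2-fold changes. The intervals of FGFR2, FGFR3 and FGFBP1 lie above 0 and those of SPRY2 and SPRY4 below it. Of the genes not called, FGFR1's interval also lies above 0, and those of FGFR4 and FGF2 lie below it. FGFRL1's runs from -0.50 to 1.22.

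Within each group the 10 genes fell into an order of level per transcript length. In Control the mean was highest for FGF2 (14.7 FPKM), followed by FGFRL1 (8.39), SPRY2 (8.15), FGFR2 (4.72), FGFR4 (4.12), FGFR1 (3.15), FGFR3 (1.94), SPRY4 (1.92) and FGFBP1 (0.222 FPKM). The libraries of FGFRL1 and SPRY2, of FGFR2 and FGFR4, and of FGFR3 and SPRY4 overlapped, so these neighbours did not differ beyond their spread. In OX-LDL the order was FGFR2 (12.2 FPKM), FGFRL1 (10.5), FGF2 (9.73), SPRY2 (4.77), FGFR3 (4.27), FGFR1 (3.57), FGFR4 (3.15), SPRY4 (0.879) and FGFBP1 (0.748 FPKM). Here only FGF2 and SPRY2, and FGFR4 and SPRY4, were neighbours without overlap. FGFR2 transcripts per unit length were at 0.584 ± 0.160 times those of SPRY2 in Control and at 2.57 ± 0.522 times in OX-LDL. Among all genes tested, FGF2 had a mean level above 83.5%, FGFR2 above 77%, SPRY2 above 71.5%, SPRY4 above 42.2% and FGFBP1 above 26.6%.

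**Figure D4:**
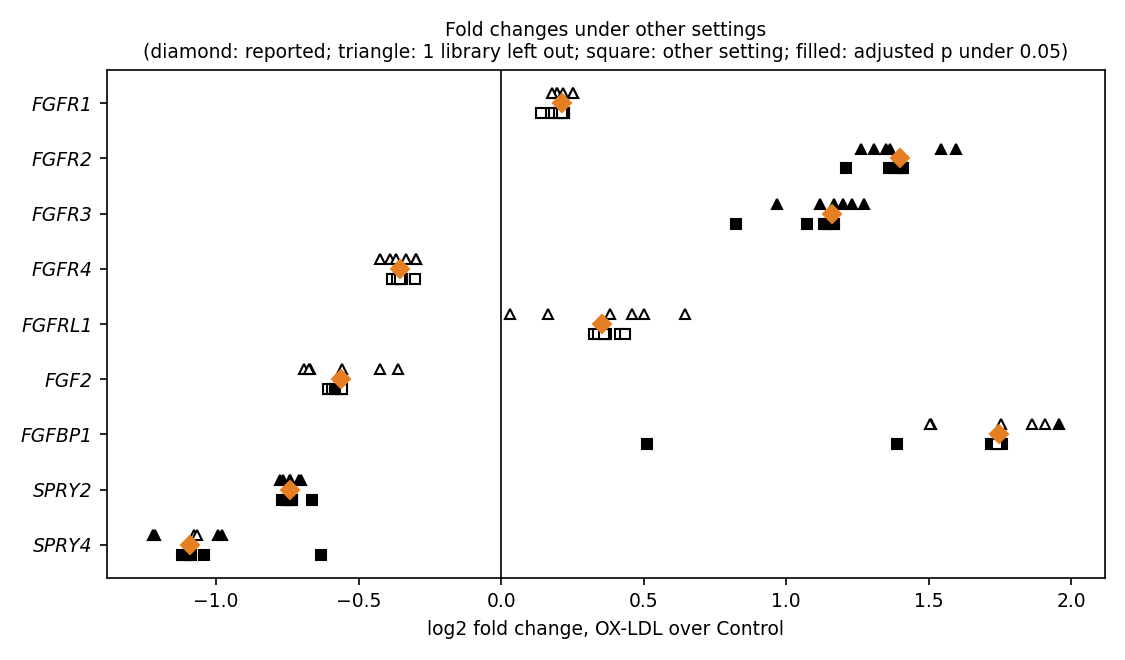
Log2 fold change (x axis) of the 9 tested genes as reported (orange diamonds), with 1 library left out (triangles) and under the other settings (squares). Filled symbols have an adjusted p under 0.05. FGFR2, FGFR3 and SPRY2 are filled throughout, FGFBP1 is open in most fits that leave out a library, and no gene crosses 0.

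The rest of the pathway was described by 97 further genes in 8 lists, of which 75 were tested. Of these 9 were called as higher and 12 as lower, 28.0% in all, beside the 15.3% of all genes given above. Their median log2 fold change was -0.12. Calls among these genes depended on single libraries: 7 of the 21 held in every fit that left out 1 library (ETV5, DUSP5, SPRED2, GPC1, SDC1, EXT1 and MAP2K1), and the other 14 were lost in at least 1. Leaving out the Control libraries in turn lost 11, 13 and 7 of the calls, and leaving out the treated libraries in turn lost 11, 4 and 14.

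**Figure D5:**
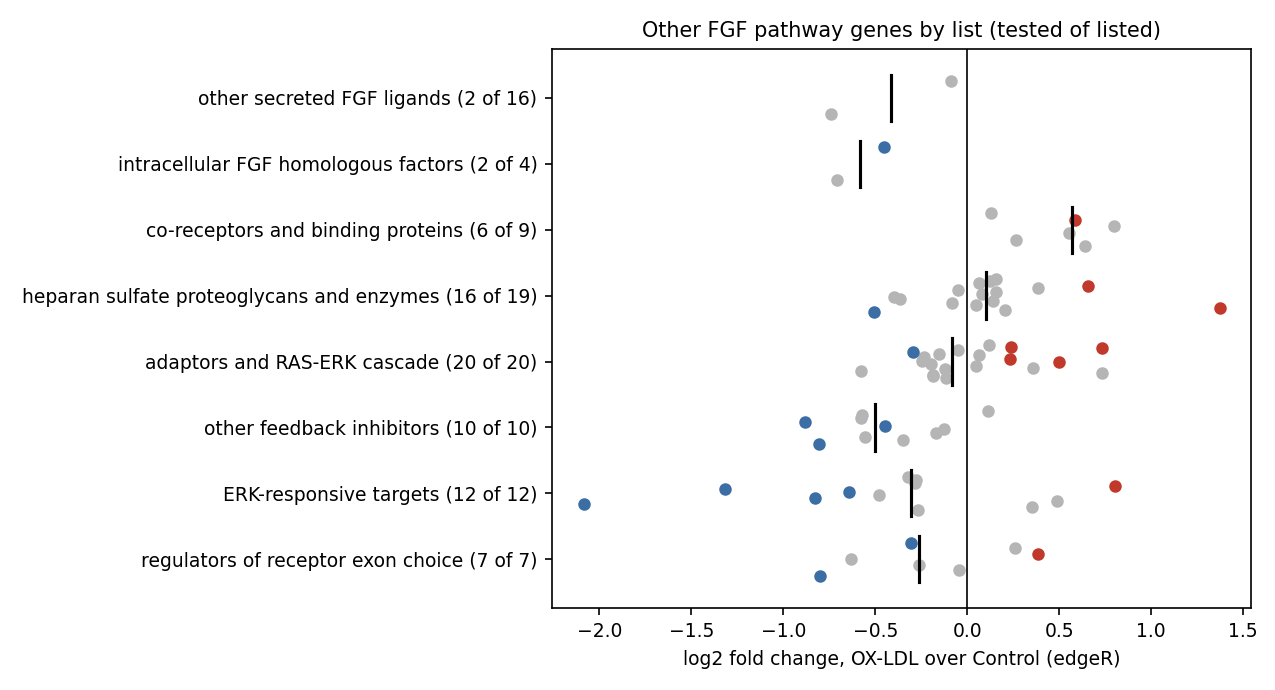
Log2 fold change (x axis) of each tested gene of the 8 pathway lists, with the number tested of the number listed. Red and blue points were called as higher and lower in OX-LDL by edgeR, grey points were not called, and black bars are list medians. The feedback inhibitors lie mostly left of 0 (9 of 10) and the co-receptors and binding proteins right of it (6 of 6), most of them grey.

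On the ligand side, FGF1 and FGF2 had little company. Of the 16 other secreted ligands 10 had 0 counts in every library, 11 were at or under the limit of detection, and the 2 tested were not called. The most abundant, FGF5, was at 0.218, 0.150 and 0.224 FPKM in Control and at 0.211, 0.167 and 0.166 FPKM in OX-LDL. Its mean was far under that of FGF2. Of the 4 intracellular homologous factors, which are not secreted and do not act as ligands in the usual way, 2 were tested and FGF12 was called, with a log2 fold change of -0.45 (adjusted p = 0.0353).

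Partners that hold the ligand at the receptor were examined next. Of the 9 co-receptors and binding proteins 6 were tested, and 1 was called as higher (16.7%, near the 15.3% of all genes tested). This was KL, the Klotho protein that makes FGFR1 a receptor for FGF23, at 4.44, 4.38 and 5.01 FPKM in Control and 6.36, 6.90 and 7.04 FPKM in OX-LDL (log2 fold change 0.59, adjusted p = 0.0115, and 0.0505 without OX-LDL replicate 3). Of the 19 heparan sulfate proteoglycans and enzymes, 16 were tested, 2 were called as higher and 1 as lower. This share of 18.8% was also near that of all genes. The glypican GPC1 went from 1.80, 1.98 and 2.07 FPKM to 5.62, 4.57 and 4.64 FPKM (log2 fold change 1.37, adjusted p = 0.00168). The syndecan SDC1 rose by a log2 fold change of 0.65 (adjusted p = 0.00509). EXT1, a polymerase of heparan sulfate chains, fell by 0.50 on the log2 scale (adjusted p = 0.00613).

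The cascade that the receptors and Sprouty proteins share was tested in full, with 4 of 20 adaptor and RAS-ERK genes called as higher and 1 as lower. The called share was 25.0%, beside 15.3% of all genes tested, and the median log2 fold change was -0.08. All of these genes but FRS3 (0.879 FPKM on average in Control and 0.574 FPKM in OX-LDL) had a mean of at least 1 FPKM. Of all genes at that level, 3134 of 12259 were called in their own fit, which is near the share of the cascade. Genes called as higher included the kinase MAP2K1 (log2 fold change 0.50, edgeR adjusted p = 0.0106) and the adaptor SHC1 (0.73, adjusted p = 0.0313). SOS1, an exchange factor of RAS, named after its value was seen, was also called (0.24, adjusted p = 0.0479). Of the 6 fits that left out 1 library, MAP2K1 was called in 6, SHC1 in 1 and SOS1 in 0. The phosphatase PTPN11, which relays FGF receptor signals to RAS, had a log2 fold change of -0.30. Of the 5 called genes of the cascade, none reached the 2-fold limit that FGFR2 and SPRY4 passed.

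Other inhibitors of the same cascade had lower levels where they were called, as SPRY2 and SPRY4 did. Of 10 tested, 3 were called as lower and none as higher, 5 had an unadjusted p under 0.05 in edgeR's test, 9 had a negative fold change, and the list's median was -0.50. Over all genes tested, 7.42% were called as lower and 30.4% had such an unadjusted p. SPRED2, a Sprouty-related inhibitor of RAF activation, went from 20.7, 22.1 and 18.8 FPKM to 11.4, 10.2 and 11.2 FPKM (log2 fold change -0.88, adjusted p = 0.00234). DUSP6, an ERK phosphatase, was at 8.54, 8.37 and 8.49 FPKM in Control and at 4.47, 5.91 and 3.81 FPKM in OX-LDL (log2 fold change -0.81, adjusted p = 0.0216), and SPRED1 had a log2 fold change of -0.44 (adjusted p = 0.0217). SPRY1, another Sprouty gene, named after its values were seen, was at 0.389, 0.462 and 0.564 FPKM in Control and at 0.0590, 0.451 and 0.411 FPKM in OX-LDL, and was not called (adjusted p = 0.603).

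Of 12 genes known to respond to ERK, 4 were called as lower and 1 as higher, 41.7% in all. Over all genes tested, 15.3% were called, 7.42% as lower and 7.91% as higher. ETV5, an ETS factor downstream of FGF receptors, went from 20.3, 21.7 and 20.6 FPKM to 8.96, 6.84 and 8.72 FPKM (log2 fold change -1.32, adjusted p = 0.00170). DUSP5, a nuclear ERK phosphatase, fell by 2.08 on the log2 scale (adjusted p = 0.00189), EPHA2 had a log2 fold change of -0.83, and ETV4, named after its value was seen, one of -0.64. FOSL1, an AP-1 subunit, was the gene called as higher (log2 fold change 0.81, adjusted p = 0.0293). The list's median was -0.30.

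Splicing of FGFR1, FGFR2 and FGFR3 decides between epithelial and mesenchymal forms of the receptor, and the table's values per gene do not separate these forms. Of 7 genes known to steer this choice 2 were called as lower and 1 as higher (42.9% in all, beside 15.3% of all genes tested). ESRP1, which favours the epithelial form of FGFR2, was at 1.13, 1.33 and 1.32 FPKM in Control and at 0.743, 0.610 and 0.758 FPKM in OX-LDL (log2 fold change -0.80, adjusted p = 0.0224). SRSF1 had a log2 fold change of -0.30 (adjusted p = 0.0491) and PTBP2 one of 0.39 (adjusted p = 0.0366). Which form of FGFR2 made up its higher level was not analysed here.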

How the data were processed

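RNA from 6 HK-2 samples (3 Control, 3 OX-LDL) was made into poly(A) libraries with a dUTP kit and sequenced in pairs. The submitters' processing notes name cutadapt 1.9, HISAT2 2.0.4, StringTie 1.3.4d and GRCh38. The authors deposited 1 table with estimated counts and FPKM per gene and library, the FPKM being scaled by the authors to transcript length and library size. The deposited estimated counts were whole numbers, so rounding changed none, and about 4 of them stand for 1 read pair. The low counts therefore look deeper than they are.

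Groups were taken from the labels. Genes whose mean over the 6 libraries reached 0.1 FPKM (19510 of 58825) were tested with edgeR 4.0.16 (R 4.3.3) by glmQLFit and glmQLFTest with TMM factors (0.985 to 1.02) and group as the only term. P-values were adjusted by Benjamini-Hochberg over all genes tested. Standard errors are the fold change over the square root of F. Intervals cover 95%. Exact permutation of 3 libraries against 3 cannot give a two-sided p below 0.1, so it was not used. Alternatives were DESeq2 1.42.0, limma 3.58.1 on log2(FPKM + 0.1) and log2(FPKM + 1), edgeR without TMM, other minimum levels, a replicate block, and leaving out each library. The 10 genes, the 97 pathway genes and the marker lists were chosen with earlier results of these data known. From each pathway list at most 4 genes are named, those with the smallest p among the called ones, along with the most abundant ligand or co-receptor. A gene that this rule would name is not reported here. Promoters are RefSeq sequences matched by symbol, found for 9 of the 10 genes. Motifs were searched on both strands. Gene positions are those of the table, and 81.2% of 58552 shared identifiers lie at identical coordinates in GENCODE 29.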

Additional observations from a re-analysis of the deposited data

How the results depend on the processing

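For the 9 tested genes of the FGF system and the pathway genes whose values are given above, the direction held under all alternatives in which they were tested, except FGF5, which was not called and whose log2 fold change of -0.09 ranged from -0.26 to 0.012 when 1 library was left out (the positive value without Control replicate 3). FGFR2, FGFR3 and SPRY2 were called under every alternative, at log2 fold changes of 1.21 to 1.59, 0.82 to 1.27 and -0.78 to -0.66. Of the 10 genes, 5 were called as reported, 4 to 6 under the other tests, filters and scaling, and 3 to 5 when 1 library was left out, the 3 when Control replicate 2 or OX-LDL replicate 3 was missing. Of the 97 pathway genes, 21 were called as reported, 16 to 26 under the other tests, filters and scaling, and 7 to 18 when 1 library was left out (10 without OX-LDL replicate 1, 7 without OX-LDL replicate 3, 10 without Control replicate 2 and 11 without Control replicate 1). With the replicate number as a block, 10 pathway genes and 5 of the 10 genes were called. FGF2 was gained (adjusted p = 0.0425) and FGFBP1 was lost (adjusted p = 0.103). The replicate numbers gave no sign of pairing over all genes tested. Deviations of same-numbered libraries correlated at -0.041, -0.003 and 0.036, and 2 of 6 libraries correlated best with their own number. With 3 libraries per group this cannot exclude pairing, which the labels do not state. Calls over all genes were 2991 as reported, 1636 with the block, and 1161 to 2943 with 1 library left out (lowest without Control replicate 2), and 4430 by DESeq2. Genes past the fold limit were 1240 as reported and 321 on the log2(FPKM + 1) scale, which shrinks the change of low genes, and FGFBP1's log2 fold change there was 0.51. FGFBP1 did not reach the stricter minimum of 1 FPKM, so that fit gives it no value. The cause of the other differences was not tested. Depth limits FGF1 and FGFBP1: the first was under 12 counts in every library, and the second rested on at most 121.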
